A study of Mus musculus with 8 samples.

Results

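The sarcomeric myosin heavy chains examined here were Myh1, Myh2, Myh3, Myh4, Myh6, Myh7, Myh7b and Myh8, chosen by name as the adult fast, slow-type, embryonic and neonatal members of the family. They are 8 of the 55487 genes in the deposited values, and all 8 had at least 10 counts in each library, as had 15135 genes in all. RNA came from the hindlimb muscle of 8 male C57BL/6J mice aged 10 weeks, each a replicate of 1 condition. Both hindlimbs were held in casts for 8 days, and over those days each mouse received K14Q MOTS-c at 15 mg/kg/day in 2 intraperitoneal injections daily. MOTS-c is a small protein encoded in mitochondrial DNA, and K14Q is its naturally occurring form with a lysine exchanged for a glutamine. The sample labels name the muscle vastus lateralis, whereas the study's methods name gastrocnemius. Mice given wild-type MOTS-c or no peptide were not analysed here, so no value below is an effect of casting or of the peptide.

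Myosin heavy chains are the motor proteins of the thick filament. Each muscle fiber contracts at a speed set largely by the heavy chain it holds, and limb muscle of the mouse mixes slow type I fibers with fast type IIa, IIx and IIb fibers. The fast genes Myh2 (IIa), Myh1 (IIx) and Myh4 (IIb) stand in a row with the neonatal gene Myh8 and the embryonic gene Myh3 on one chromosome, and the slow gene Myh7 (type I, also the beta chain of the heart) stands beside Myh6 (the alpha chain of the heart) on another. Embryonic and neonatal chains are made in developing muscle and again when adult muscle regenerates. Myh7b is a slow-type relative expressed at low level in muscle, heart and brain. In whole muscle, fewer fibers of a type and less RNA per fiber cannot be told apart.

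In GENCODE M21 on GRCm38, Myh3 (chr11:67078300-67102291), Myh2 (chr11:67171027-67197517), Myh1 (chr11:67200052-67224575), Myh4 (chr11:67238029-67260446) and Myh8 (chr11:67277124-67308634) follow each other on the plus strand of chromosome 11. The gaps are 68.7 kb from Myh3 to Myh2, 2.53 kb from Myh2 to Myh1, 13.5 kb from Myh1 to Myh4 and 16.7 kb from Myh4 to Myh8. Myh6 (chr14:54941921-54966927) and Myh7 (chr14:54970684-54994626) lie on the minus strand of chromosome 14, 3.76 kb apart, and Myh7b (chr2:155611212-155634307) lies alone on the plus strand of chromosome 2. The promoters of Myh2, Myh1, Myh4 and Myh8, the 4 most abundant chains here, are shown because these genes neighbor each other and hold stretches in common. Each is the RefSeq window of 300 bases on GRCm38.p6, from 250 bases before the transcription start to 50 after it, plus strand, with the shared stretches in capitals.
Myh2, chr11:67170777-67171076: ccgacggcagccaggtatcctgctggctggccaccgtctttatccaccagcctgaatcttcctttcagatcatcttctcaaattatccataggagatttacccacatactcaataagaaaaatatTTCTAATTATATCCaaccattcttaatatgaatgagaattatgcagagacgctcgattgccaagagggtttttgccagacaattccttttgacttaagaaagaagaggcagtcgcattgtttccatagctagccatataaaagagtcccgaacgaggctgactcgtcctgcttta
Myh1, chr11:67199852-67200151: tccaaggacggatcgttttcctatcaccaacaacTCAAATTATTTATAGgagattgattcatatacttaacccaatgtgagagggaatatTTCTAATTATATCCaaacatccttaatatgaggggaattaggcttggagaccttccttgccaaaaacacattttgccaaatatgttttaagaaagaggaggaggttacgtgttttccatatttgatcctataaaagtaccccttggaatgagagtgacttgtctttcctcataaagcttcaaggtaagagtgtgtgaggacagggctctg
Myh4, chr11:67237562-67237861: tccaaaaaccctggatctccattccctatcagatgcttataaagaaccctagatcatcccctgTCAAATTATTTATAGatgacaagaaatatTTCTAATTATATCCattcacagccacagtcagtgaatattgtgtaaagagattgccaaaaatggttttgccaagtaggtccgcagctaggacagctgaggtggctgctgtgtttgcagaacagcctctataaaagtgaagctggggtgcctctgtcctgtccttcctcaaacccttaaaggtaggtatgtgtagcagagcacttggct
Myh8, chr11:67276874-67277173: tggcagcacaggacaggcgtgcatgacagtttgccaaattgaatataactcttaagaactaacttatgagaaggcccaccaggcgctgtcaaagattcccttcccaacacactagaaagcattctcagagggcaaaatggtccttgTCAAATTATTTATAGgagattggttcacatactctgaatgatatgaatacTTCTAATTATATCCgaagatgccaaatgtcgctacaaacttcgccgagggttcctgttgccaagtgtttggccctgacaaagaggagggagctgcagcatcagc

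The longest stretch common to all 4 windows was the 14 bases TTCTAATTATATCC, which began at position -125 in Myh2, -160 in Myh1, -158 in Myh4 and -54 in Myh8, counted from the start site. Searched on both strands, it was found in 4 of 32851 RefSeq promoter windows of the mouse (0.0122%), namely these 4. The longest stretch common to Myh1, Myh4 and Myh8 was the 15 bases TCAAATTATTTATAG, found in 3 of the 32851 windows (0.00913%), and it overlaps a match to the MEF2 consensus, the A/T-rich element bound by the MEF2 factors of muscle. Matches to that consensus occurred in 3.19% of all windows. TATAAA, the core of the TATA box, lay at -32 in Myh1, -31 in Myh4 and -29 in Myh3, and it occurred somewhere on either strand in these 3, in Myh2, Myh8 and Myh6, and in 13.6% of all windows. A CArG box, the element of serum response factor, was found among the members only in Myh4, and in 1.63% of all windows. The E-box CANNTG was in the windows of Myh7b, Myh3, Myh4, Myh8, Myh6 and Myh7 and in 72.3% of all windows. The search was made after the sequences had been seen, and these matches describe letters, not binding.

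Fast type IIb Myh4 was by far the most abundant chain in every library. The lowest normalized count of Myh4 was 839797 in mouse 3, the median 1495611 and the highest 2063673 in mouse 1, a mean of 1461400.2 ± 421858 (SD, n = 8). Normalized counts are the authors' values, the reads of a gene divided by the size factor of the library. Mice 3 and 4 were the low pair, the latter at 956622, and the other 6 mice lay at or above 1306364.

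Type IIx Myh1 varied least. Its normalized count was 167827 at the lowest, in mouse 3, 230471 at the median and 256882 at the highest, in mouse 1, with a mean of 222264 ± 28091 (SD, n = 8). Type IIa Myh2 ran from 78906 in mouse 3 over a median of 108750.1 to 153190 in mouse 1, with a mean of 108298 ± 24244 (SD, n = 8). Mouse 1 stood highest and mouse 3 lowest for all 3 adult fast chains.

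Reads assigned to the neonatal chain Myh8 were nearly as many as those of Myh2. Myh8 had 60704 normalized counts in mouse 3, the lowest, a median of 102419 and 142980.5 in mouse 1, the highest, and a mean of 101912 ± 28432 (SD, n = 8). The embryonic chain Myh3 was far lower, from 1126 in mouse 3 over a median of 1612 to 1993 in mouse 8, with a mean of 1576 ± 292 (SD, n = 8). The pair of developmental chains thus differed widely in the reads assigned to them, though sequence shared with other chains leaves the level of Myh8 uncertain.

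The slow chain Myh7 had 3910 normalized counts in mouse 3, the lowest, a median of 5951 and 9437 in mouse 1, the highest, with a mean of 6061 ± 1816 (SD, n = 8). Myh6 ran from 669 in mouse 3 over a median of 1145 to 1720 in mouse 1, with a mean of 1138 ± 368 (SD, n = 8). Myh7b was the least abundant, from 38.2 in mouse 3 over a median of 72.8 to 119 in mouse 1, with a mean of 78.0 ± 27.5 (SD, n = 8). The lowest library was that of mouse 3 for all 8 chains, and the highest that of mouse 1 for 7 of them, Myh3 being the exception. With library totals in place of the size factors, mouse 3 was the lowest for 4 chains only (Myh1, Myh4, Myh7b and Myh8) and mouse 1 the highest for 6. The size factor of mouse 3, by which its counts were divided, was the largest at 1.20, and that of mouse 1 was 0.942.

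**Figure D1:**
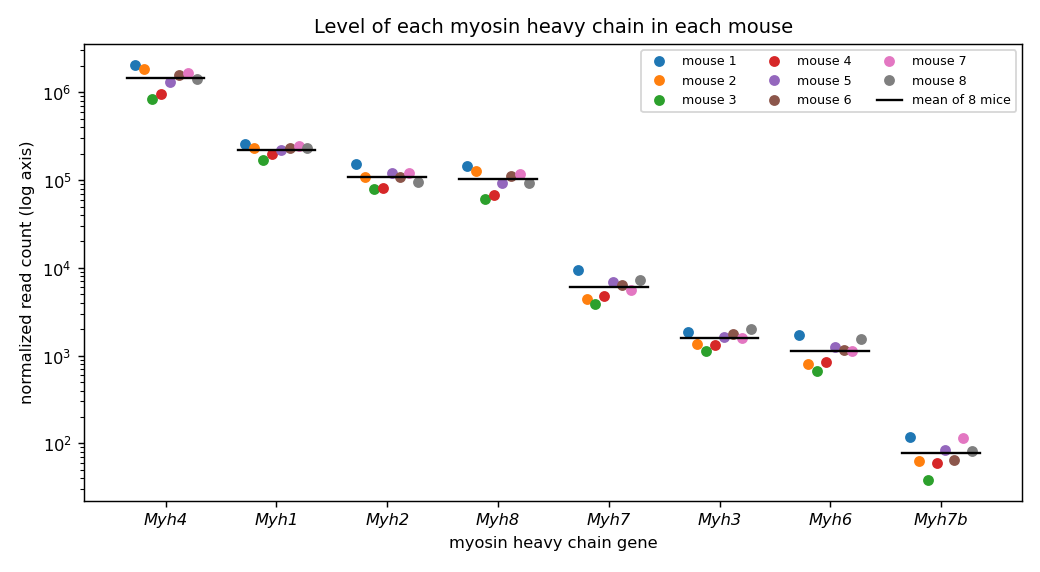
Normalized read count of each myosin heavy chain (log axis) in each of the 8 mice (colored points, mouse 1 at the left of each cluster to mouse 8 at the right) with the mean as a line. Myh4 sits at 1306364 or more in 6 of the 8 mice while Myh7b stays between 38.2 and 119, and mouse 3 is the lowest point for each chain.

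Levels of different genes were compared per kilobase of exon, the union of a gene's annotated exons. Myh4 had 242919 ± 70123 normalized counts per kb (SD, n = 8), Myh1 34986 ± 4422, Myh2 15174 ± 3397 and Myh8 8657 ± 2415. Below them came Myh7 at 704 ± 211, Myh3 at 260.2 ± 48.3, Myh6 at 169 ± 54.8 and Myh7b at 11.8 ± 4.15. In each of the 7 neighboring pairs in this order, the upper gene was higher per kb in 8 of 8 mice, with an exact two-sided sign-flip p of 0.0078, the smallest that 8 mice allow. The order was set from these same values, so its direction was given and the p describes only its steadiness between mice. The geometric mean ratio was 6.72 for Myh4 over Myh1, 2.34 for Myh1 over Myh2, 12.3 for Myh8 over Myh7 and 14.4 for Myh6 over Myh7b. The ranges over mice overlapped for Myh2 and Myh8, whose ratio was 1.78, and for Myh3 and Myh6, whose ratio was 1.59.

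The place of Myh8 depended on its length. Its annotated exons add up to 11772 bases, whereas its longest transcript has 6149 bases, so that per kb of longest transcript Myh8 had 16574 normalized counts against 17803 for Myh2. On that scale Myh2 was higher in only 6 of 8 mice (exact sign-flip p = 0.13), and these neighbors did not differ beyond their spread. The other 6 neighboring pairs kept their order in 8 of 8 mice on both scales.

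As a share of the summed counts of the 8 chains, Myh4 made up 76.3% ± 2.50 (SD, n = 8), from 72.8% in mouse 3 to 79.7% in mouse 2. Myh1 made up 12.1% ± 1.95, from 9.77% in mouse 1 to 15.1% in mouse 4, and Myh2 5.80% ± 0.791, from 4.69% in mouse 2 to 6.92% in mouse 5. The mice with the smallest Myh4 shares, 3 and 4, had the largest Myh1 shares. The 3 adult fast chains together held 94.2% ± 0.117, between 94.1% and 94.4% in each mouse. Shares of 1 total are bound to each other, so where these 3 chains hold most of it a lower share of one has to appear largely as a higher share of the others.

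The neonatal chain Myh8 took 5.34% ± 0.160 (SD, n = 8) of the counts, between 5.02% in mouse 8 and 5.48% in mouse 6. The embryonic chain Myh3 took 0.0858% ± 0.0170, from 0.0585% in mouse 2 to 0.108% in mouse 8. Slow Myh7 took 0.325% ± 0.0715, from 0.187% in mouse 2 to 0.397% in mouse 5, Myh6 0.0607% ± 0.0145 and Myh7b 0.00410% ± 0.000914. Mouse 2 had the largest share of Myh4 and the smallest share of Myh2, Myh3, Myh6, Myh7 and Myh7b. Per kb of exon, the adult fast chains held 96.8% ± 0.0677, Myh8 2.85% ± 0.0850 and Myh7 0.237% ± 0.0523. Per kb of longest transcript they held 94.3% ± 0.115, 5.24% ± 0.157 and 0.315% ± 0.0693, so the lower share of Myh8 depends on the length used. With Myh8 left out of the sum, the adult fast chains held 99.5% ± 0.105 of the counts. The 95% Wilson interval of a share in 1 library was at most 0.0797 percentage points to either side for Myh4, 0.0108 for Myh7 and 0.00123 for Myh7b, and it covers counting error only.

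**Figure D2:**
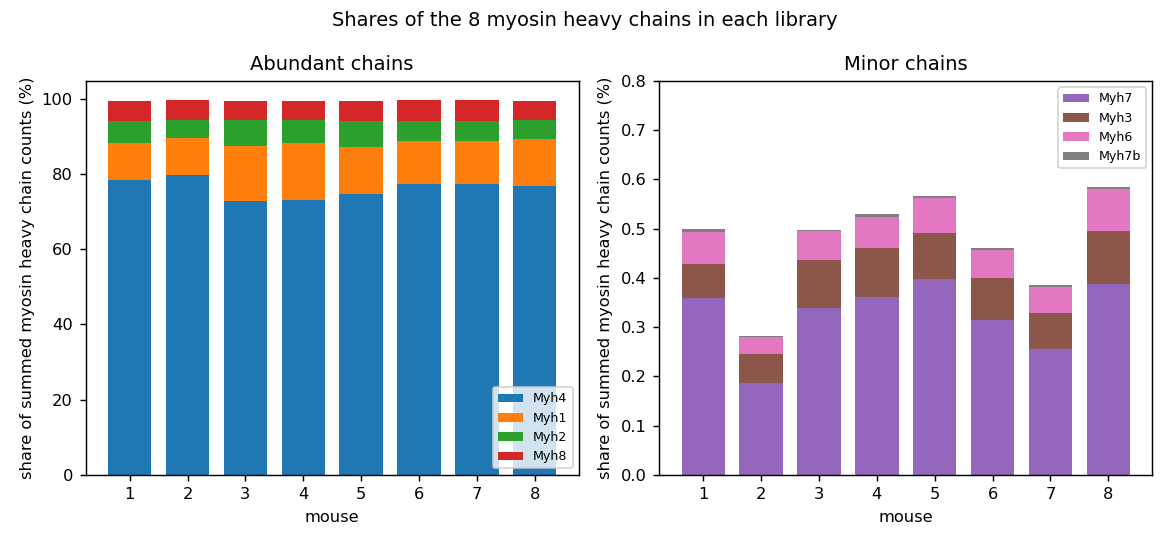
Share of the summed counts of the 8 myosin heavy chains (percent) in each mouse, stacked, with the 4 abundant chains at the left and the 4 minor chains at the right on an axis that ends at 0.8%. Myh4 fills 72.8% to 79.7% of each bar at the left, and at the right mouse 2 has the shortest bar, with a Myh7 share of 0.187%.

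Lists of skeletal and heart muscle genes were read in each library, which do not tell one limb muscle from another. The 6 genes of the skeletal muscle list (Acta1, Ckm, Des, Mb, Neb and Ryr1), of which Ckm, Des and Mb are also abundant in heart, summed to between 894508 normalized counts in mouse 3 and 1360987 in mouse 1. None of 6 heart genes (Nppa, Nppb, Tnni3, Myl7, Mybpc3 and Ryr2) had 10 counts in every library. Nppb and Myl7 had no read in any library, and the heart list summed to between 3.30 and 14.1 normalized counts, against 669 to 1720 for Myh6. Recovered depth was 23985356 to 33012497 counts per library, and the 8 chains took 4.53% of it in mouse 3 to 8.14% in mouse 1.

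Myh8 followed Myh4 almost exactly from mouse to mouse. The normalized count of Myh8 was 7.0% ± 0.225 (SD, n = 8) of that of Myh4, with the extremes at 6.53% in mouse 8 and 7.23% in mouse 3. The log2 ratio had an SD of 0.05 between mice, against a counting error of 0.0049, and of 15134 genes set against Myh4 it was the steadiest, the median gene having an SD of 0.51. Pearson's r of the log2 levels was 0.995 (exact permutation p = 4.96e-05) and Spearman's rho 0.976 (exact permutation p = 0.000397), and without mice 3 and 4, the farthest from the median of Myh4, r was 0.98. In limma's fit of all genes on Myh4, the slope of Myh8 was 0.95 (adjusted p = 0.027), above 0 in each fit that left out a mouse but past the threshold in only 3 of those 8.

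Myh13, the chain of extraocular muscle, lies 13.0 kb beyond Myh8 and was less tightly tied to Myh4. Its normalized count was 0.605% ± 0.0788 (SD, n = 8) of that of Myh4, with an SD of 0.19 on the log2 scale, and r with Myh4 was 0.917 (exact permutation p = 0.00087, rho 0.952 with exact p = 0.0011, r 0.87 without mice 3 and 4, limma adjusted p = 0.069). Myh3, the other developmental chain, had r = 0.62 with Myh8 (exact permutation p = 0.10, rho 0.43 with exact p = 0.30, limma adjusted p = 0.37), which turned to -0.32 without mice 3 and 4.

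Reads from a stretch that 2 genes share can be assigned to either, so the shared sequence is given beside the ratio. The coding sequences of Myh4 and Myh8 were identical at 87.9% of aligned bases. Of all windows of 50 bases in the Myh4 exons, 9.52% occurred letter for letter in Myh8 exons and 18.9% in at least 1 of the other 8 sarcomeric genes compared, Myh13 included. At 75 bases the shares were 4.38% and 9.68%. Myh1 and Myh2 held 10.6% and 10.1% of the 50-base windows of Myh4, and their aligned coding bases were identical to it at 90.2% and 88.2%. The log2 ratios of Myh1 and Myh2 to Myh4 had SDs of 0.28 and 0.24 between mice. The longest identical run of the Myh4 and Myh8 coding sequences has 164 bases. It is shown in capitals with 20 bases of coding sequence on either side, joined across introns, from GENCODE M21. It spans exons 22 and 23 of 38 in Myh4 (chr11:67252200-67252358 and chr11:67252555-67252559) and exons 24 and 25 of 40 in Myh8 (chr11:67297464-67297622 and chr11:67297702-67297706).
Myh4, chr11:67251947-67252579: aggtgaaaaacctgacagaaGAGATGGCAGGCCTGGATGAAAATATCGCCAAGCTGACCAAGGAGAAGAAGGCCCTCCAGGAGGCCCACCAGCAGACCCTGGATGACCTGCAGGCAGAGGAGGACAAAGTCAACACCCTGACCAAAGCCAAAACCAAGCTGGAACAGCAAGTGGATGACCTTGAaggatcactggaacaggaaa
Myh8, chr11:67297333-67297726: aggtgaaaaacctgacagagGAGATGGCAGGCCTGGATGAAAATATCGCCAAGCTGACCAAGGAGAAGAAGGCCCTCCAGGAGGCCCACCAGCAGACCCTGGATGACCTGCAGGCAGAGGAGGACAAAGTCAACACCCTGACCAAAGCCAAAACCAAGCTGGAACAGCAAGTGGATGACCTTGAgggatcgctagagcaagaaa

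The normalized count of Myh4 was 1429.9% ± 47.6 (SD, n = 8) of that of Myh8. The study's methods do not say how reads that map to several genes were counted, and the part of shared sequence in the level of Myh8 and in its relation to Myh4 was not tested. The level of Myh8 is therefore uncertain. Of the 50-base windows of Myh8 exons, 11.1% were found in another of these genes, and 4.81% in Myh4.

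Myh6 and Myh7 were the other tight pair. The normalized count of Myh6 was 18.7% ± 1.50 (SD, n = 8) of that of Myh7, from 17.1% in mouse 3 to 21.6% in mouse 8. The log2 ratio had an SD of 0.11 between mice, against a counting error of 0.05, and was the steadiest of 15134 genes set against Myh7, whose median was 0.49. Pearson's r was 0.976 and Spearman's rho 1, with an exact permutation p of 2.48e-05 for r, the smallest that 8 mice allow, and of 4.96e-05 for rho. Without mice 1 and 3, r was 0.957. limma's adjusted p over all genes was 0.30, so this pair did not pass the threshold of 0.05.

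These neighbors on chromosome 14 were the most alike in sequence of all 28 pairs, with 91.7% of aligned coding bases identical. Of the 50-base windows of Myh6 exons, 20.2% occurred in Myh7, and 15.6% of those of Myh7 occurred in Myh6. The longest identical run, 245 bases, again in capitals with 20 bases of coding sequence on either side, joined across introns (minus strand, GENCODE M21), spans exons 32 and 33 of 41 in Myh7 and exons 30 and 31 of 39 in Myh6.
Myh7, chr14:54974927-54975367: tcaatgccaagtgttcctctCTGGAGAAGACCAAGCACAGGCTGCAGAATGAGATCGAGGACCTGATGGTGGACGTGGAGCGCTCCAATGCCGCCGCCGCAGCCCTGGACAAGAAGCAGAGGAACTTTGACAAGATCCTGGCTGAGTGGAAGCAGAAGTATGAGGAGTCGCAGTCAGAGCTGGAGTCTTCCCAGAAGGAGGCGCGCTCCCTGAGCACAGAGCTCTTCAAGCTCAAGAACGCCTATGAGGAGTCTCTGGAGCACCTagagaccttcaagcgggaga
Myh6, chr14:54948307-54948745: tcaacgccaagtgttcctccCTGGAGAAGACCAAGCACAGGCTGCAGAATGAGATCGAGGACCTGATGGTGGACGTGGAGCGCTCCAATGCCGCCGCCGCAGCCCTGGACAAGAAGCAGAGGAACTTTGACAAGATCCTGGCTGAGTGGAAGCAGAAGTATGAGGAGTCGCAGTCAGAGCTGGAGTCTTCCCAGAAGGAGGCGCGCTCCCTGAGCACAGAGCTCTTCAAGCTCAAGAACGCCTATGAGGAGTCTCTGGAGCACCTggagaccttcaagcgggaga

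Myh6 also had a high r with a chain with which it shares no window. Against Myh3, which has 76.9% of aligned coding bases in common with it and no 50-base window, r was 0.955 (exact permutation p = 0.00064, rho 0.929 with exact p = 0.0022, r 0.93 without mice 3 and 8, limma adjusted p = 0.74). The ratio of Myh6 to Myh3 varied more, 70.8% ± 11.6 (SD, n = 8), with an SD of 0.23 on the log2 scale. Myh3 was no closer to Myh6 than to other chains, its log2 ratio having an SD of 0.21 to Myh7 and 0.17 to Myh1. As with Myh8, the part of shared sequence in the level of Myh6 was not tested. Myh7b shared no window of 50 bases with any other chain and 72.3% or less of its aligned coding bases.

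**Figure D3:**
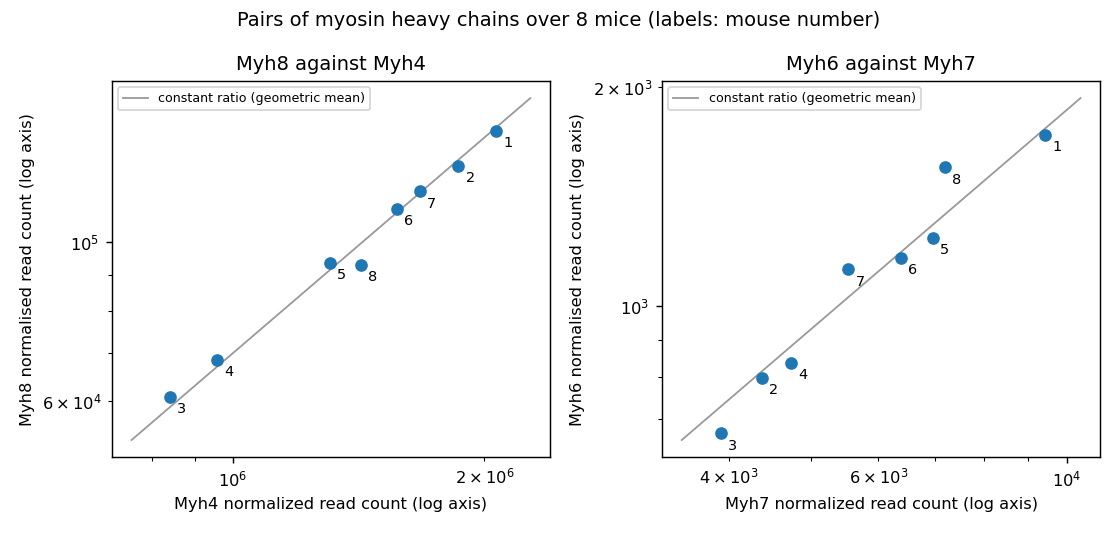
Normalized read counts of Myh8 against Myh4 (left) and of Myh6 against Myh7 (right), both axes logarithmic, 1 point per mouse labeled with its number, and a line of constant ratio at the geometric mean. The points keep close to the lines over a range of 2.46-fold in Myh4 and 2.41-fold in Myh7, with mouse 8 farthest off in both.

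**Figure D4:**
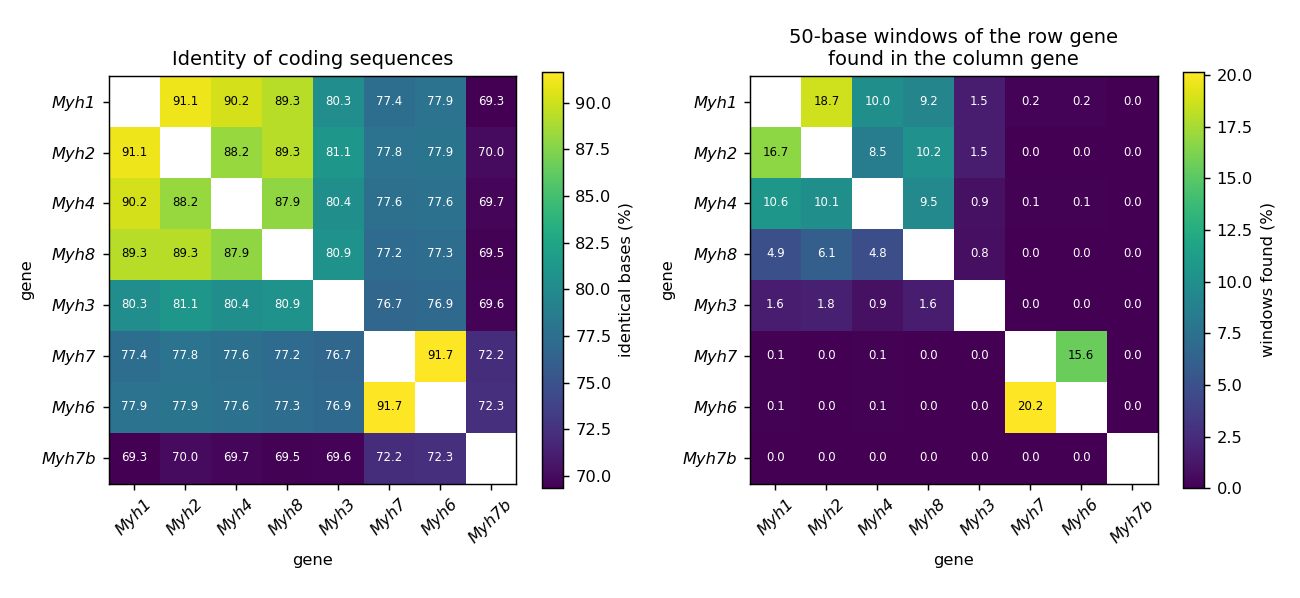
Percent of identical bases between the coding sequences of each pair of chains (left), and percent of the 50-base windows of the row gene's exons that occur in the column gene (right). Myh1, Myh2, Myh4 and Myh8 form one block of high identity, Myh6 and Myh7 another at 91.7%, and Myh7b shares no window with any other chain.

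Of the 8 chains, 7 varied more between mice than the median gene on the authors' scaling, and 5 with library totals. The coefficient of variation was 12.6% for Myh1, 18.6% for Myh3, 22.4% for Myh2, 27.9% for Myh8, 28.9% for Myh4, 30.0% for Myh7, 32.4% for Myh6 and 35.3% for Myh7b, a median of 28.4%. Over the 15135 genes tested the median was 15.6%, and over the 3501 genes averaging 1000 normalized counts or more it was 12.6%. Counting error of a single library was 11.5% for Myh7b and at most 3.0% for the other chains. With library totals in place of the authors' size factors the coefficient was lower for all 8 chains, from 6.03% for Myh1 to 28.7% for Myh7b, while the median gene had 18.2%. No chain had 1 mouse set apart from the other 7 by Dixon's test (0 of 8 chains, against 6% of all genes tested).

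On the authors' scaling all 28 pairs of chains had a positive r over the 8 mice, from 0.58 to 0.995 with a median of 0.77. Of all genes tested, 45.7% to 49.9% had a positive r with a given chain. The log2 levels of all 8 chains had a negative r with the log2 size factor, from -0.27 for Myh7 to -0.67 for Myh1. The part of the size factors in the r between chains was not tested. Fast Myh1 and fast Myh4 had r = 0.942 (exact permutation p = 0.00055, rho 0.857 with exact p = 0.011, r 0.81 without mice 3 and 4, limma adjusted p = 0.13 in the fit on Myh4). Myh1 and Myh2 had r = 0.845 (exact permutation p = 0.0065, rho 0.690 with exact p = 0.069, r 0.65 without mice 3 and 4, limma adjusted p = 0.23), and with the share of Myh1 in place of its level the slope of Myh2 turned to -1.17. Slow Myh7 and fast Myh4 had r = 0.59 (exact permutation p = 0.13, rho 0.43 with exact p = 0.30, limma adjusted p = 0.36), and r fell to 0.02 without mice 3 and 4. Only Myh4 and Myh8 passed limma's threshold among the 28 pairs.

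Each chain was next set against every other gene, with limma's slope of a gene's log2(normalized count + 1) on that of the chain, Benjamini-Hochberg adjusted over all 15134 genes of the fit. With Myh4, 42 genes passed an adjusted p of 0.05 (0.278% of those tested), 20 with a positive slope (0.132%) and 22 with a negative slope (0.145%). With Myh8, 38 passed (0.251%), 16 positive and 22 negative. None passed with Myh1, Myh2, Myh3, Myh6, Myh7 or Myh7b (0% of those tested each), for which limma gave 1651, 1649, 907, 684, 504 and 955 genes at an unadjusted p under 0.05. For the same 6 chains edgeR's quasi-likelihood test called 1, 1, 0, 0, 0 and 0 genes and DESeq2 341, 292, 20, 21, 12 and 15.

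The calls with Myh4 changed with single mice. There were none when mouse 1, mouse 2, mouse 3 or mouse 4 was left out, 3 without mouse 7, 16 without mouse 6, 48 without mouse 8 and 89 without mouse 5, and with library totals as the scaling there were 20 positive and 324 negative calls. The calls with Myh8 likewise numbered 0 without mouse 1, 2, 3 or 4, 6 without mouse 7, 7 without mouse 6, 52 without mouse 8 and 68 without mouse 5, and 13 positive and 275 negative with library totals. An exact permutation test for each gene, which cannot go below 2.48e-05, called none after adjustment with any chain.

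Fast-fiber partners of myosin had positive correlations with Myh4, as with each other chain. All 10 genes of the fast list (Tnnt3, Tnni2, Tnnc2, Mylpf, Myl1, Atp2a1, Pvalb, Actn3, Casq1 and Myoz1) had a positive r with Myh4, with a median of 0.77 against -0.02 for all genes, and 1 of the 10 passed the test. Their median r was 0.80 with Myh1, 0.75 with Myh3, 0.71 with Myh8, 0.68 with Myh7b, 0.67 with Myh6 and 0.61 with Myh2, 10 of 10 being positive with each. The slopes of all 10 were also above 0 with library totals and with the share of Myh4 in place of its level, whereas 0 of 10 were with the share of Myh1, Myh2 or Myh3. With the share of Myh8, 4 of 10 were above 0, with that of Myh7 1, of Myh6 7 and of Myh7b 9. The gene that passed was Actn3, the alpha-actinin of fast Z-discs, which ran from 101166 normalized counts in mouse 3 to 245974 in mouse 1. Its r with Myh4 was 0.961 (exact permutation p = 0.000198, rho 0.929 with exact p = 0.0022, r 0.89 without mice 3 and 4) and its slope 0.97 (limma adjusted p = 0.031). Mybpc2, the fast myosin-binding protein C, was the only one of 9 thick-filament assembly genes (7 with a positive r, at a median of 0.57 against -0.02 for all genes, of which 48.5% were positive and 0.132% passed with a positive slope) to pass. With library totals 4 of the 9 had a slope above 0. Mybpc2 ran from 54105 in mouse 3 to 133506 in mouse 1. Its r was 0.958 (exact permutation p = 0.000298, rho 0.976 with exact p = 0.000397, r 0.89 without mice 3 and 4) and its slope 1.03 (limma adjusted p = 0.031). Of the 8 fits that each left out a mouse, 2 called Actn3 and 3 called Mybpc2, and none of those without mouse 1, 2, 3 or 4 did.

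Among the other calls with Myh4, some were picked for mention after their values were seen. Mstn, which encodes myostatin, the secreted inhibitor of muscle growth, had a slope of 1.04 (limma adjusted p = 0.031). It ran from 991 normalized counts in mouse 3 to 2908 in mouse 1. Slc39a14, a zinc and iron transporter, had a slope of -2.03 (limma adjusted p = 0.027), from 493 in mouse 2 to 3120.4 in mouse 4. Gdf5, a bone morphogenetic protein of the joint, had a slope of -3.43 (limma adjusted p = 0.031), from 12.7 in mouse 1 to 287 in mouse 3. Of the 8 fits that each left out a mouse, 3 still called Mstn, 4 Slc39a14 and 3 Gdf5.

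Slow-fiber partners had positive correlations with Myh7 that did not pass the test. All 10 genes of the slow list (Tnnt1, Tnni1, Tnnc1, Myl2, Myl3, Tpm3, Atp2a2, Casq2, Myoz2 and Myl6b) had a positive r with Myh7, between 0.64 and 0.934 with a median of 0.86 against -0.04 for all genes, and 0 of 10 passed limma's adjusted threshold. Tnni1, the slow troponin I, had r = 0.934 with Myh7 (exact permutation p = 0.00057, rho 0.905 with exact p = 0.0046, r 0.89 without mice 1 and 3, limma adjusted p = 0.56). It had 307 normalized counts in mouse 4 and 837 in mouse 1. The median r of the slow list was 0.57 with Myh4, and that of the fast list was 0.55 with Myh7, the difference between chains not being tested. With the share of Myh7 in place of its level, 9 of 10 slow genes still had a slope above 0, but only 1 of 10 fast genes did. For Myh4, 8 of 10 slow genes kept a slope above 0 with library totals and 8 with its share.

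The slow list also had a median r of 0.85 with Myh6 and of 0.83 with embryonic Myh3, for which the fast list had 0.67 and 0.75, against 0.53 with neonatal Myh8, where all genes had medians between -0.05 and -0.01. With the share in place of the level, 10 of 10 slow genes had a slope above 0 on Myh6, 7 on Myh3 and 5 on Myh8. Tnnt1, the slow troponin T, ranked the mice as Myh3 did (rho 1, exact permutation p = 4.96e-05; r = 0.928, exact p = 0.0010, r 0.90 without mice 3 and 8, limma adjusted p = 0.74). Of 9 genes of developing or regenerating muscle (Myog, Myod1, Mymk, Mymx, Myl4, Actc1, Tnnt2, Chrng and Ncam1), 6 had enough counts, and their median r with Myh3 was 0.49 (5 of 6 positive), with none passing. With neonatal Myh8 it was 0.02 (3 of 6 positive), as low as with adult Myh4 at 0.04 and Myh2 at 0.05 (3 of 6 positive each). With Myh6, Myh7b, Myh7 and Myh1 it was 0.43, 0.37, 0.35 and 0.34. Without mouse 3, the median slope of the 6 genes went from 1.16 to 0.59 on Myh3 and from 1.05 to -1.16 on Myh1, where 2 of 6 slopes were then above 0, against 5 with all mice, and on Myh7b 3 of 6 were. It also fell from 0.60 to 0.19 on Myh6, from 0.53 to 0.14 on Myh7 and from 0.06 to -0.68 on Myh8. Other mice moved it the other way. On Myh8 it rose to 0.37 without mouse 2 and to 0.36 without mouse 4, with 5 of 6 slopes above 0 each. On Myh7 it rose to 0.89 without mouse 1, with 6 of 6 above 0. Tnnt2, the troponin T of heart and embryonic muscle, had r = 0.72 with Myh3 (exact permutation p = 0.048, rho 0.62 with exact p = 0.11, limma adjusted p = 0.80), and r was 0.37 without mice 3 and 8. Myog, a myogenic regulator, had r = 0.45 with Myh3 (exact permutation p = 0.26, rho 0.33 with exact p = 0.43, r 0.03 without mice 3 and 8, limma adjusted p = 0.81).

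Genes known to rise in denervated or disused muscle had mostly negative correlations with all 8 chains, and none passed the adjusted threshold. All 5 (Fbxo32, Trim63, Gadd45a, Chrna1 and Runx1) had a negative r with Myh4, with a median of -0.56, and with Myh2, with a median of -0.84, against -0.02 and -0.00 for all genes. With Myh7 the median was -0.43, and all 5 were again negative. With Myh8 all 5 were negative too, at a median of -0.60. With Myh1, Myh7b, Myh6 and Myh3, 1 of 5 was positive and the medians were -0.49, -0.53, -0.39 and -0.35, and with the share of Myh1 in place of its level all 5 slopes were above 0. Runx1, a transcription factor that rises after denervation, ran from 409 normalized counts in mouse 1 to 1401 in mouse 4, and its r with Myh2 was -0.916 (exact permutation p = 0.0022, rho -0.976 with exact p = 0.000397, limma adjusted p = 0.16), -0.97 without mice 1 and 3. With the share of Myh2 in place of its level, the slope of Runx1 was 0.04, and with the share of Myh7 all 5 genes had slopes above 0, whereas with the share of Myh4 all 5 stayed below 0. Trim63, the muscle ubiquitin ligase MuRF1, was lowest at 32456 in mouse 1 and highest at 60044 in mouse 4, with r = -0.834 against Myh4 (exact permutation p = 0.0098, rho -0.786 with exact p = 0.028, r -0.68 without mice 3 and 4, limma adjusted p = 0.12). Mouse 4 was the highest for all 5 genes.

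Markers of other cells were read beside these relations. Of 33 markers of smooth muscle, fibroblasts, endothelium, macrophages, Schwann cells, satellite cells, adipocytes, red blood cells and heart, 26 had enough counts, and 0 of 26 passed limma's threshold with any of the 8 chains. Of all genes, 0.278% passed with Myh4, 0.251% with Myh8 and 0% with each other chain, so 0 of 26 does not set these markers apart. The 3 macrophage genes summed to between 606 normalized counts in mouse 8 and 1617 in mouse 4, and 3 of 3 had a negative r with Myh4, Adgre1 and Csf1r with -0.02 and -0.00 and Cd68 with -0.861 (exact permutation p = 0.0071, rho -0.881 with exact p = 0.0072, r -0.76 without mice 3 and 4, limma adjusted p = 0.074). The 4 red-cell genes summed to between 6022 in mouse 8 and 23929.7 in mouse 5, also with negative r with Myh4, at a median of -0.48. Their part in the relations of Myh4 was not tested. The fibroblast list summed to between 9473 in mouse 7 and 17618 in mouse 2, with a median r of 0.29.

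Regulators of fiber type showed no uniform relation. Of 10 (Eya1, Tbx15, Sox6, Prox1, Nfatc1, Ppargc1a, Vgll2, Maf, Mafa and Mef2c), 7 had a positive r with Myh4 and 0 passed, at a median of 0.45 against -0.02 for all genes. With library totals only 3 of the 10 had a slope above 0 on Myh4. Maf, one of the large MAF factors of type IIb fibers, was picked as the regulator with the highest r with Myh4 and had r = 0.807 with Myh4 (exact permutation p = 0.021, rho 0.57 with exact p = 0.15, limma adjusted p = 0.12), but 0.09 without mice 3 and 4. Mafa, of the same family and the regulator with the highest r with Myh7b, for which it was picked, had r = 0.881 with Myh7b (exact permutation p = 0.0039, rho 0.976 with exact p = 0.000397, r 0.86 without mice 1 and 3, limma adjusted p = 0.76).

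**Figure D5:**
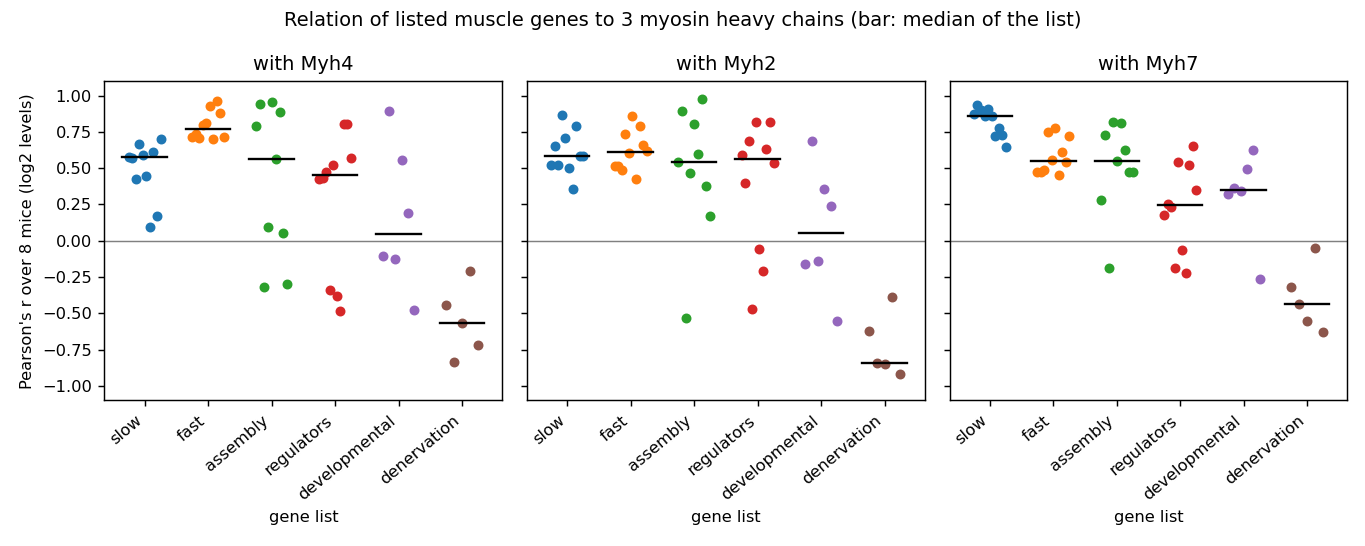
Pearson's r over 8 mice between the log2 level of each listed gene and that of Myh4, Myh2 and Myh7, 1 point per gene, with the median of each list as a bar. The slow list lies highest with Myh7 (median 0.86), the fast list with Myh4 (0.77), and the 5 denervation genes lie below 0 with Myh4, Myh2 and Myh7 alike.

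The genes most like each chain were taken as the 3 with the highest r of log2 levels over the 8 mice, and as they were chosen for r these values describe likeness only. For Myh4 they were Myh8, Cacna2d1 and Cacna1s, both of the latter being subunits of the calcium channel that senses voltage in the T-tubule, at r = 0.992 and 0.982. Neither passed limma's threshold (adjusted p = 0.057 each). For Myh8 they came next after Myh4, Cacna1s at 0.991 and Cacna2d1 at 0.988. For Myh7 they were Myh6, Sdha and Cs at r = 0.976, 0.976 and 0.975, and for Myh6 they were Cs, Myh7 and Pdha1 at 0.998, 0.976 and 0.964. Cs, Sdha and Pdha1 encode the mitochondrial enzymes citrate synthase, succinate dehydrogenase A and a pyruvate dehydrogenase subunit.

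For Myh3 the 3 were Btbd1, Myh6 and Pdha1, at r between 0.952 and 0.969. For Myh1 they were Satb1, a chromatin organizer, Pkia, an inhibitor of protein kinase A, and Fam19a3, at r = 0.983, 0.973 and 0.969. For Myh2 they were Socs7, Myom1 and Kif1c, at r = 0.980, 0.976 and 0.969, where Myom1 encodes myomesin of the M-band and Kif1c a kinesin. For Myh7b they were Acvr1b, Cry1 and Aldoart2, at r between 0.946 and 0.956. Apart from Myh8 with Myh4 and Myh4 with Myh8, limma's adjusted p was 0.056 or more for these 24 pairs. With the share of the chain in place of its level, the slopes of all 3 genes for Myh1, all 3 for Myh2 and Btbd1 and Pdha1 for Myh3 fell below 0, with none passing the threshold.

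Genes that overlap the chains were read in the same libraries, because the methods do not state whether strand was used in counting. Myhas, transcribed against Myh1 (chr11:67211256-67237573), had 154 to 710 counts, few beside the 179525 or more of Myh1. The antisense gene 9430073C21Rik at the end of Myh2 had 40 to 79 counts. The antisense gene Mhrt at Myh7 had 0 to 6. Mir208a within Myh6 and Mir499 within Myh7b had 0 counts in each library, and Mir208b within Myh7 had 0 to 2, in libraries that were made from polyadenylated RNA. The protein-coding gene Trpc4ap overlaps the end of Myh7b from the other strand by 37 bases, of the 6634 exonic bases of Myh7b, and reads of the 2 genes within those bases cannot be told apart if strand was not used. Over their whole lengths Trpc4ap had 3317 to 5910 counts and Myh7b 46 to 112.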

How the data were processed

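Polyadenylated RNA of 8 mice of 1 group was sequenced on an Illumina NextSeq. As the methods and the submitters' processing notes state, the authors filtered and checked reads with fastp and FastQC, mapped them with STAR to GRCm38.p6, counted them per gene with summarizeOverlaps and scaled them with DESeq2. The deposited signal is the count of a gene divided by 1 size factor per library (0.906 to 1.20), since 100% of values were whole multiples of 1 read within 0.01 of a read, and the counts so recovered gave depth and count minimums. Of 55487 genes, 55141 had a symbol in GENCODE M21. Annotation release, strand and multi-mapping reads are not given in the sources used here. 

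Genes with at least 10 counts in each library were fitted with limma 3.58.1 on log2(normalized count + 1), threshold 0.05, two-sided. A slope understates the change of low genes, owing to the pseudocount of 1. Named pairs (744 computed) were tested by exact permutation over 40320 pairings, and neighbors in level by 256 sign patterns. Tests over 8 mice of 1 condition concern only these mice and no effect of a treatment. The fits and pairings ask whether levels vary together from mouse to mouse. The sign patterns ask how steady a ratio of levels is. Members and lists were chosen with earlier results of these data known, and 3 genes of the lists are not reported here. Named genes were the members, the 3 genes with the highest r for each, listed genes with the smallest p or that define a list, and overlapping genes. The fits were tested on simulated relations to Myh4: of 50 planted slopes of 1, 47 were recovered, and of 14934 genes without one, 13 were called. Alternatives were edgeR 4.0.16 factors and quasi-likelihood test, DESeq2 1.42.0, library totals, a pseudocount of 5, no count minimum, share as predictor, medians, other lengths and denominators and leaving out each mouse. Exact tests over all genes and shares without Myh8 were added after seeing the data. R 4.3.3, Python 3.11.15, scipy 1.17.1 and pandas 2.3.3 were used. All 8 members were matched to RefSeq promoters. Protein sequences were not used here.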

Additional observations from a re-analysis of the deposited data

How the results depend on the processing

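No paired analysis was possible because all mice belong to 1 condition. Slopes of 43 named pairs under 15 alternatives, 640 in all as DESeq2 gave no adjusted p for 5, kept their sign except in 11 cases, all with a chain's share as predictor and none called: on Myh1, Satb1 (-0.89), Pkia (-0.93), Fam19a3 (-2.46) and Myh2 (-1.17), on Myh2, Socs7 (-0.12), Myom1 (-0.28), Kif1c (-0.32) and Runx1 (0.043), on Myh3, Btbd1 (-0.047) and Pdha1 (-0.043), and on Myh8, Myh3 (-0.59). Leaving out each mouse gave 0 to 89 genes related to Myh4 and 0 to 68 related to Myh8 in place of 42 and 38, 0 to 1 for Myh2 and 0 for the other 5 chains. For Myh4, the count was 344 with library totals, 149 with edgeR's quasi-likelihood test, 672 with DESeq2, and 0 with no count minimum or by exact permutation. For Myh8 it was 288, 104, 648, 0 and 0, and 0 with the share of Myh8 as predictor. For Myh1, from 0, it was 1 with edgeR's TMM factors, 2 with a pseudocount of 5, 1 with edgeR's test, 341 with DESeq2 and 43 with its share as predictor. For Myh2 it was 1 with edgeR's test, 292 with DESeq2 and 2 with the share. DESeq2 gave 20 for Myh3, where the share gave 6, 21 for Myh6, 12 for Myh7 and 15 for Myh7b. The cause was not tested.

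Per kb of exon, the share of Myh4 was 79.7%, of the adult fast chains 96.8%, of the developmental pair 2.94% and of the slow or alpha chains 0.298%, because Myh8 and Myh7 have long exon unions. Per kb of longest transcript these shares were 76.5%, 94.3%, 5.32% and 0.379%. Without Myh8, Myh4 held 80.6% and the adult fast chains 99.5%, and with 6 other myosin II genes in the sum the latter held 93.3%. Library totals moved single libraries by up to 0.21 on the log2 scale against the authors' size factors. Counting error was largest for Myh7b, at 46 counts in its lowest library.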
